A study of Rattus norvegicus with 2 samples.

Results

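The cells described are pericytes of the rat dorsal root ganglion (DRG), the nodule beside the spinal cord that holds sensory neurons. They were selected on their own transcripts, as barcodes with at least 1000 unique molecular identifiers (UMIs), under 20% of UMIs from the mitochondrial genome and a sum of Rgs5, Kcnj8, Abcc9 and Higd1b of at least 10 per 10000 UMIs. A pericyte also held at least 1 UMI of Kcnj8 or Abcc9, more UMIs of that pair than of the smooth muscle myosin Myh11, an endothelial sum (Cldn5, Flt1 and Cdh5) under 10 and a satellite glia sum (Fabp7 and Tyrp1) under 12 per 10000. The rule found 643 pericytes among 20811 kept barcodes and 24179 barcodes in all. The Control library held 235 of them and the DPN library 408.

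Pericytes are mural cells that sit inside the basement membrane of capillaries and contact the endothelium directly, whereas smooth muscle cells wrap arterioles and venules. Endothelial PDGF-B acting on the receptor PDGFRB recruits and maintains them. They set capillary tone, contribute to the blood-nerve barrier and deposit vessel matrix. Kcnj8 encodes Kir6.1 and Abcc9 encodes SUR2, the pore and the regulatory subunit of the vascular ATP-sensitive potassium channel, which opens when ATP falls and hyperpolarises the cell. In diabetes, pericyte loss and thickened capillary basement membrane are textbook features of retinal and nerve vessels.

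Diabetic peripheral neuropathy (DPN) was modelled in male Sprague-Dawley rats, bought at 8 weeks of age, by 1 intraperitoneal injection of streptozotocin (STZ, 65 mg/kg), a toxin of pancreatic beta cells. Control rats received the citrate vehicle, and ganglia of lumbar levels L3 to L6 were taken from both sides after 8 weeks of diabetes. Each condition was 1 pool of 5 rats and 1 droplet library, and both ganglion pools went through the same collagenase and trypsin digestion with removal of dead cells. Rats entered the diabetic pool on their blood glucose, and the study lists no insulin measurement. STZ exposure and diabetes cannot be told apart. The files held 11011 Control and 13168 DPN barcodes with 121101966 and 115409375 UMIs. Of the barcode sequences 38 occurred in both libraries, and no barcode was a pericyte in both.

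With 1 library per condition there was no replicate check, no test was made and no p-value is given. The level of a gene is its UMIs summed over the pericytes of a library, given per 1000000 UMIs (CPM), and a ratio is the DPN level over the Control level. Intervals in parentheses are exact 95% intervals that cover counting error only, not the spread between rats or preparations. A gene was called higher in DPN at a ratio of at least 1.5, and lower at 1/1.5 or under, where the interval left out 1. Such calls compare these libraries, not the conditions. For a gene summed over cells, a change in all pericytes and a change in a few of them cannot be told apart.

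Pericytes made up 2.40% of kept Control barcodes (2.10% to 2.72%) and 3.70% of kept DPN barcodes (3.36% to 4.07%). That order turned when barcodes with 10% or more mitochondrial UMIs were left out, which gave 7.42% in Control and 6.93% in DPN. Satellite glia, the most frequent class in Control, had a median mitochondrial share of 14.1% and 15.5%. The number of pericytes in the tissue and the number that survived dissociation cannot be told apart. Pericytes were shallow cells, with a median of 4282 UMIs in Control and 2946.5 in DPN, against 10137 and 6678 in all other kept barcodes. Summed over cells, their levels rested on 1161488 and 1410082 UMIs. Thinned to 1000 UMIs each, they held a median of 532 and 555 genes.

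The 4 selecting genes describe how the cells were chosen and are no finding. Their sum had a median of 28.6 per 10000 UMIs in Control (lowest 10.6, highest 98.1) and 29.9 in DPN (10.2 to 107), so most cells lay well above the limit of 10. Only 3 Control and 8 DPN pericytes lay between 10 and 12, and 5 and 11 otherwise eligible barcodes lay between 8 and 10, the nearest at 9.61 and 9.97. Kcnj8 and Abcc9 were found together in 150 Control (63.8%) and 250 DPN pericytes (61.3%). Rgs5, a regulator of G protein signalling, stood at 1107 CPM in Control and 1161 in DPN. Kcnj8 stood at 653 and 716, Abcc9 at 321 and 465, and Higd1b, a hypoxia-inducible domain family gene, at 849.8 and 744. None of the 4 passed the limits between libraries, with ratios of 1.05, 1.10, 1.45 and 0.875 in that order.

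The label was checked on markers that the rule did not use. Vtn, the matrix protein vitronectin, stood at 1153 and 889 CPM in Control and DPN pericytes, against 242 and 223 in smooth muscle cells and 79.7 and 31.1 in endothelial cells. Pdgfrb stood at 406 and 415 against 182 and 171 in smooth muscle cells. Steap4, a metalloreductase, stood at 341 and 440.4 against 10.3 and 5.69 in smooth muscle, though fibroblasts held it too at 352 and 226. Ndufa4l2 and Cox4i2, mitochondrial subunits of mural cells, differed little between the mural classes, with 1191 and 859.5 against 914 and 582 for the former and 753 and 730.5 against 683 and 637 for the latter. Cspg4, the NG2 proteoglycan, was not above smooth muscle cells, with 68.0 and 102 against 94.4 and 116. Of 23 pericyte markers outside the rule that were compared, 6 were at least 2 times higher in pericytes than in smooth muscle cells in both libraries and 1 was so in smooth muscle cells. Over all 5600 genes compared these shares were 4.77% and 4.61%. Most of these markers therefore did not separate the mural classes by that limit, while Vtn, Pdgfrb and Steap4 stood higher under the label. The comparison classes were gated on other genes in the same libraries, with 319 and 408 smooth muscle cells and 642 and 1016 endothelial cells.

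**Figure D1:**
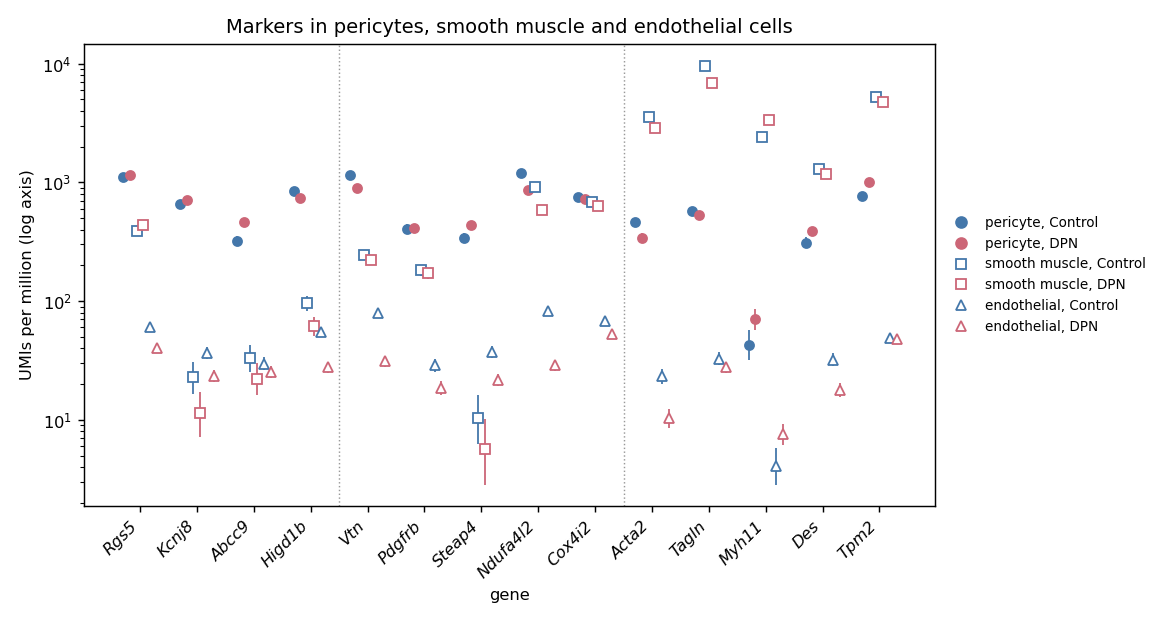
Levels of selecting genes (left of the first dotted line), other mural markers (middle) and contractile genes (right) in CPM on a log axis, for pericytes (filled circles), smooth muscle cells (open squares) and endothelial cells (open triangles) of the Control (blue) and DPN (red) library. Bars are 95% Poisson intervals of the summed UMIs. Steap4 in pericytes, at 341 and 440.4, lies above both other classes, which reach at most 37.2, while Myh11 in pericytes, at 43.0 and 70.2, lies far below its 2419 and 3333 in smooth muscle cells.

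Contractile genes were compared with smooth muscle cells, a class gated on a sum of Acta2, Tagln and Myh11 of at least 20 per 10000 UMIs and on more Myh11 than Kcnj8 and Abcc9. The gaps in these 3 genes are therefore set by the gates and are a description. Acta2, smooth muscle actin, stood at 459.8 and 342 CPM against 3559 and 2848 in smooth muscle cells, and Tagln, the actin-binding transgelin, at 569 and 532 against 9592 and 6797. Myh11 stood at 43.0 and 70.2 against 2419 and 3333. Of 24 contractile genes compared, 17 were at least 2 times higher in smooth muscle cells in both libraries and 0 were so in pericytes. Over all 5600 genes compared these shares were 4.61% and 4.77%. The gate genes Acta2 and Tagln were among the 24, and Myh11 was left out. Cald1, caldesmon, was close between the classes, with 1414 and 1828 in pericytes against 1108 and 1494. Desmin (Des), the muscle intermediate filament, stood at 309.9 and 389 against 1289 and 1164.

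Single pericytes spread widely in this property. The sum of Acta2, Tagln and Myh11 was 0 in 67 Control (28.5%) and 158 DPN pericytes (38.7%), and at least 20 per 10000 UMIs in 41 (17.4%) and 57 (14%). Those 41 and 57 cells also met the contractile limit of the smooth muscle gate and were kept as pericytes since Kcnj8 and Abcc9 outnumbered Myh11. The DPN cells were shallower, so a 0 is more likely in them, and the difference between libraries in the share at 0 was not tested. Rgs5 stood at 1044 CPM in Control cells with a sum of 0 and at 1517 in those with at least 20. In DPN the same cells held 1138 and 1229. Vtn ran the other way, at 1351 and 1077 in Control and 1048 and 808 in DPN. These are ranges of 1 score and not cell types.

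**Figure D2:**
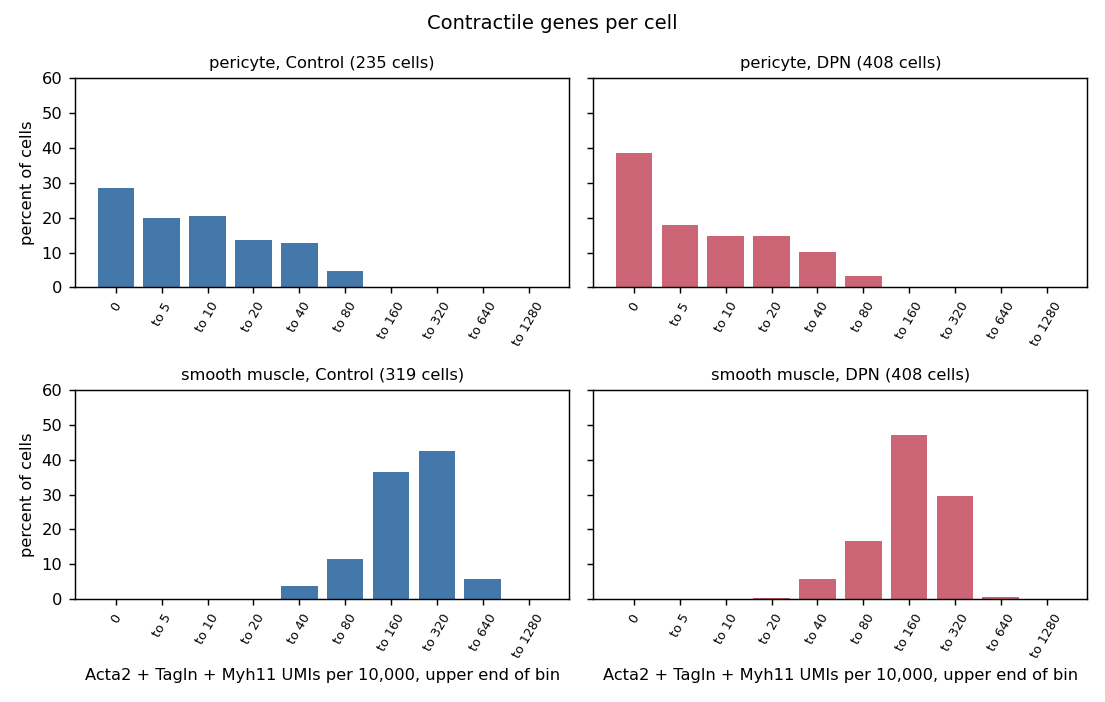
Percent of cells (y axis) by the sum of Acta2, Tagln and Myh11 per 10000 UMIs (x axis, upper end of each bin) in pericytes (top) and smooth muscle cells (bottom) of each library. The most filled pericyte bin in both libraries is 0, at 28.5% and 38.7% of cells. The near absence of smooth muscle cells under 20 follows from the gate of that class.

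Transcripts of other cell types were present at low levels. Endothelial markers (Cldn5, Flt1, Cdh5 and Emcn) summed to 223 and 215 CPM in Control and DPN pericytes, under limits that the rule set for the first 3. Satellite glia markers summed to 179 and 136 and Schwann markers to 311 and 422, while 2 Control and 25 DPN pericytes would also have met the Schwann limit. Fibroblast markers summed to 73.2 and 61.0, with their defining gene Pdgfra at 0 in both libraries, and macrophage markers to 8.61 and 57.4. Neuron markers summed to 226 in Control and 565 in DPN pericytes, against 1840 and 2594 in the other kept barcodes. Hemoglobin transcripts summed to 1622 and 324 and came from 13 and 20 cells. Their part in the differences between libraries below was not tested beyond leaving such cells out. A doublet score built on simulated pairs called 8 Control (3.40%) and 17 DPN pericytes (4.17%), which were kept.

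Against smooth muscle cells, 267 of 5600 genes (4.77%) stood at least 2 times higher in pericytes in both libraries, and 258 (4.61%) stood at least 2 times higher in smooth muscle cells. Both classes were defined on gates in the same cells, so these counts are a description. A smaller set of 58 genes stood at least 2 times above each of 5 classes (smooth muscle, endothelial, satellite glia, Schwann cells and fibroblasts) in both libraries. All 58 came from the 3080 genes with enough pericyte UMIs for the comparison of libraries below, so genes with few pericyte UMIs could not enter. The set held Adora2a, Adra2a, Agtr1a, Avpr1a, Ednrb, Ptgir and Pth1r out of the 12 vasoactive receptors among those 3080. It also held Pdgfrb, the advanced glycation end product receptor Ager and Fgfr4. Against smooth muscle cells alone, 7 of 14 vasoactive receptors compared were at least 2 times higher, against 4.77% of all genes compared. Neurons and macrophages were not among the 5 classes.

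Ednrb, an endothelin receptor, stood at 528 and 562 CPM in Control and DPN pericytes against 52.6 and 54.9 in smooth muscle cells. The related receptor Ednra was nearly even between the mural classes, at 73.2 and 113 against 77.0 and 108. Agtr1a, the angiotensin II receptor, stood at 146 and 203 against 10.8 and 8.28. Adra2a, an inhibitory alpha-2 adrenergic receptor for noradrenaline, stood at 176 and 138 against 21.2 and 16. Adora2a, the Gs-coupled adenosine receptor, stood at 202 and 134 against 25.5 and 27.9. Npy1r, a receptor for the sympathetic peptide neuropeptide Y, stood lower in pericytes than in smooth muscle cells, with 374 and 377 against 547 and 601.

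**Figure D3:**
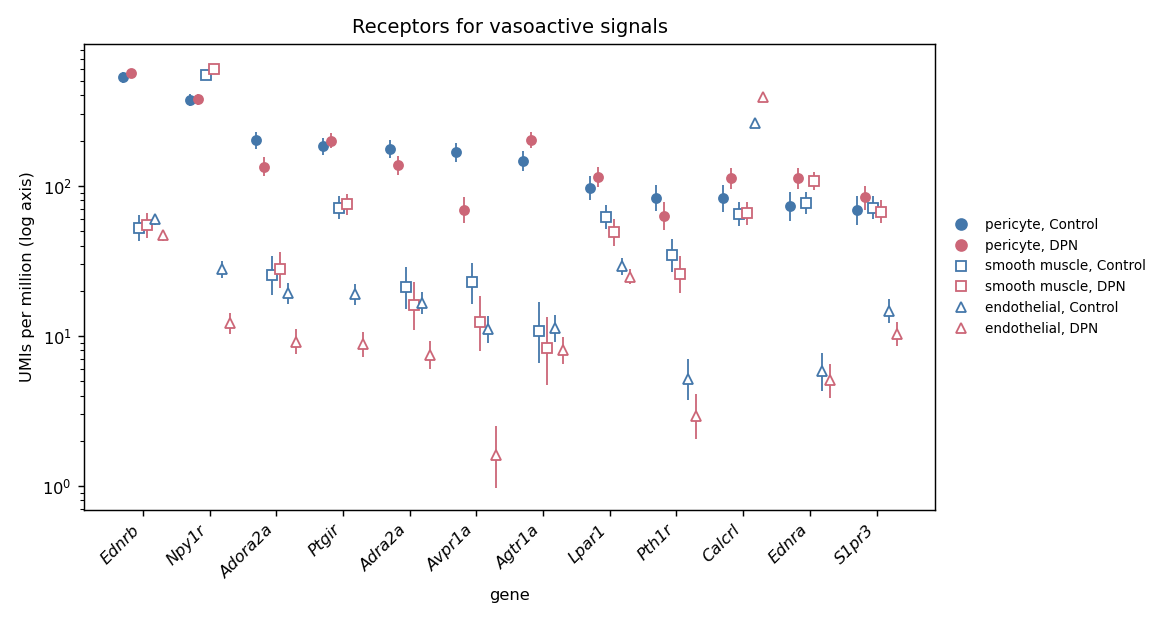
Levels of receptors for vasoactive signals in CPM on a log axis, with symbols, colours and 95% Poisson intervals as for the marker plot. Agtr1a, Adra2a, Avpr1a and Adora2a in pericytes lie above both other classes in each library, Npy1r is highest in smooth muscle cells and Calcrl in endothelial cells. Avpr1a is the receptor whose pericyte level differs most between libraries, at 167 and 69.5.

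The genes that stood out most from the highest of the 5 classes were of mixed function. Inmt, a methyltransferase of small amines, stood at 650.0 and 625 CPM against 44.5 and 9.83 in smooth muscle cells and 55.4 and 10.7 in fibroblasts. Ager, the receptor for advanced glycation end products, stood at 178 and 193 against 14.6 and 13.5 in smooth muscle and 18.9 and 13.2 in endothelial cells. Arhgap15, a Rac GTPase-activating protein, stood at 285 and 202 against 26.0 and 20.2 and Pmfbp1, known from the sperm flagellum, at 67.2 and 51.1 against 3.25 and 0.518. Pltp, the phospholipid transfer protein, stood at 697 and 438 against 61.3 and 36.7, and Ccl19, a lymphoid chemokine, at 206 and 229.8 against 43.9 and 44.5. Was, Plcl1, Wnt11, Cryba4 and Dclk3 completed the 15 genes, with Control levels between 25.8 and 74.9.

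Many immune genes stood higher in pericytes than in smooth muscle cells. Of 22 interferon and antigen presentation genes compared, 12 were at least 2 times higher in pericytes in both libraries, against 4.77% of all genes compared, and of 21 chemokine and inflammation genes 10 were, with 0 the other way in either list. This contrast was with smooth muscle cells and not particular to pericytes. The whole interferon list summed to 16375 and 12879 CPM in pericytes and 16874 and 13476 in endothelial cells, with less in the other classes. The chemokine list summed to 9366 and 8470 in pericytes, 8374 and 6492 in satellite glia and 6637 and 7886 in fibroblasts. The monocyte chemokine Ccl2 stood at 4202 and 3222 against 506 and 329 CPM in smooth muscle cells. Cxcl10, an interferon-induced chemokine, stood at 1502 and 1635 against 268 and 166 and the antiviral membrane protein Ifitm1 at 1448 and 969 against 201 and 71.9. The ganglia were digested before capture, and immediate early genes, which respond to it, were present in the same cells, with Fos at 6186 and 8196 and Jun at 5610.1 and 7116. What the dissociation added to these levels was not tested.

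The main comparison set DPN pericytes against Control pericytes. Genes entered where the pericytes of both libraries together held 100 UMIs or more and 10% or more of the pericytes in either library held the gene. Of 3080 such genes 477 (15.5%) were higher and 187 (6.07%) were lower in DPN. Over the same genes the other kept barcodes of these libraries gave 497 higher (16.1%) and 92 lower (2.99%). Those barcodes mix cell types whose shares differ between libraries. Satellite glia made up 41.7% of kept barcodes in Control and 26.9% in DPN, and Schwann cells 17.4% and 34.5%. Their counts also rest on far more UMIs, 112983932 and 101775431, so the 2 sets of counts are not a like comparison. The median log2 ratio over all tested genes was 0.03. The split differed in thinned cells, where fewer genes also entered. With each pericyte thinned to 1000 UMIs, 853 genes could be tested, 83 were higher and 81 lower, so that 50.6% of calls were higher instead of 71.8%. Higher genes were also longer. The median span of the gene on the genome was 52.4 kb among higher genes, 9.83 kb among lower genes and 18.7 kb over all 2894 genes with a RefSeq entry. Among the longest 25% of genes 34.7% were higher and 1.93% lower, and in the shortest 6.49% and 9.39%. The part of depth and span in the single ratios was not tested.

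**Figure D4:**
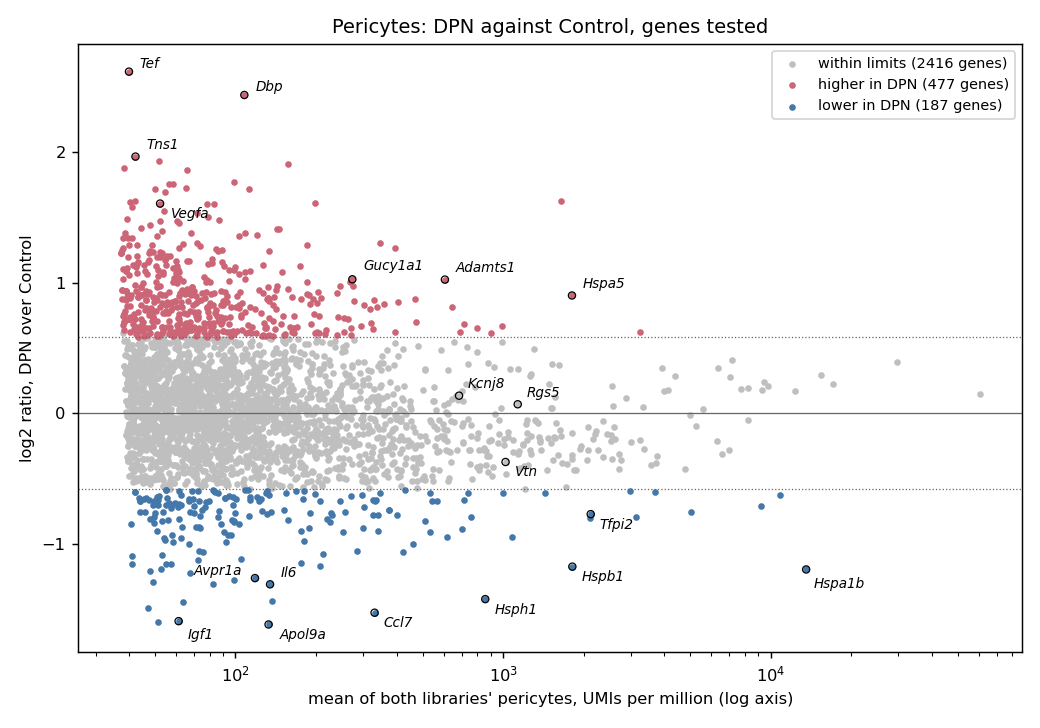
Log2 ratio of DPN over Control pericytes (y axis) against the mean level of both libraries in CPM (x axis, log) for the 3080 tested genes, with higher genes in red, lower genes in blue and dotted lines at ratios of 1.5 and 1/1.5. Of the genes called, 477 lie above and 187 below. Leaving out clone names, Tef and Dbp lie highest and Apol9a, Clec2l (not marked) and Igf1 lowest. Among the genes with the highest levels Hspa1b lies at a ratio of 0.436.

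Most cytosolic heat shock genes, whose products refold damaged proteins, were lower in DPN pericytes. Of 18 tested members 13 were lower, against 6.07% of all tested genes, 0 were higher, and the median log2 ratio was −0.88 against 0.03. Hspa1b, the inducible HSP70, fell from 18890.4 to 8231 CPM (ratio 0.436, interval 0.426 to 0.446). Hsph1, the HSP110 nucleotide exchange factor of HSP70, fell from 1250.1 to 465 (0.372, 0.339 to 0.408). Hspb1, the small heat shock protein HSP27, fell from 2516 to 1113 (0.442, 0.416 to 0.470), and Cryab, alpha-B crystallin, from 443 to 237 (0.535, 0.465 to 0.615). The HSP40 co-chaperones moved with them, Dnajb1 at a ratio of 0.517 and Dnaja1 at 0.576. Mitochondrial Hspe1 and Hspd1, the chaperonin pair HSP10 and HSP60, stood at 0.403 and 0.499.

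The constitutive Hspa8 passed by little (0.656, 0.630 to 0.684) and lost the call under 5 of 14 alternatives, and Hsp90ab1 did not pass, at 5429 in Control and 5066 in DPN (0.933, 0.902 to 0.965). The ubiquitin gene Ubb, which heat shock also induces, was lower too, at a ratio of 0.647, and was named after its values were seen. The ratios in the other vessel classes lay below 1 to different degrees. Hspa1b stood at 0.416 in smooth muscle cells and 0.512 in endothelial cells. Hspb1 stood at 0.838 in smooth muscle cells and 0.849 in endothelial cells, and Dnaja1 at 0.904 in smooth muscle cells and 0.925 in endothelial cells. All 3 classes came from the same pair of libraries, and the difference between classes was not tested.

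Heat shock factor binds inverted GAA units, and the promoters of the members that moved together were read for this motif. The 100 bases shown for each gene lie upstream of the RefSeq start in build GRCr8, with matches to GAANNTTC or TTCNNGAA on either strand in capitals, and Hsp90ab1, which was not called, is printed for comparison.
Hsph1 (chr12:10427258-10427357, plus strand): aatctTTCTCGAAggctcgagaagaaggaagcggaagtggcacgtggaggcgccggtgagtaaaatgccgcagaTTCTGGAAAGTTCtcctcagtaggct
Hspe1 (chr9:64084227-64084326, plus strand): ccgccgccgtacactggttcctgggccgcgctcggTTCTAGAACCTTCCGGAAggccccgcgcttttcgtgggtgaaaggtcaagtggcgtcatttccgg
Hspa8 (chr8:50080414-50080513, plus strand): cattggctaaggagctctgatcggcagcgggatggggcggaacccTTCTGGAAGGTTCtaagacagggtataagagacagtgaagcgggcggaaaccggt
Hspb1 (chr12:26432352-26432451, minus strand): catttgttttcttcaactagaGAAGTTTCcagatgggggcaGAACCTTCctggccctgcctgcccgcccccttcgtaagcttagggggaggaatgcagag
Dnajb1 (chr19:41431142-41431241, minus strand): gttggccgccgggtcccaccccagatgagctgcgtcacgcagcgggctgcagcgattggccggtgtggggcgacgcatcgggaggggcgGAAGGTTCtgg
Cacybp (chr13:74981240-74981339, minus strand): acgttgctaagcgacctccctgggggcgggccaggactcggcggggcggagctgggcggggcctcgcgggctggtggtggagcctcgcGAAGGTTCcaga
Hsp90ab1 (chr9:22930323-22930422, plus strand): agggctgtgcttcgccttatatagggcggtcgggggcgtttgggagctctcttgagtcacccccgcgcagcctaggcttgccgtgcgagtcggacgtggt

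Within 250 bases upstream of the start, 9 of the 11 lower members with a promoter entry held at least 1 match, as did 2 of the 4 members that were not called, Fkbp4 and Stip1. The motif is short, and 13.5% of 33469 rat promoters held it. The longer run of 3 alternating units, GAANNTTCNNGAA or TTCNNGAANNTTC, was found in 0.663% of promoters. It lay upstream of Hsph1, Hspe1, Hspd1 and Hspa8, which are 4 of the 11 lower members and 0 of the 4 others. Hspe1 and Hspd1 are transcribed away from each other from overlapping promoters on chromosome 9, so their runs are the same bases. Hspb1 holds 2 separate matches, and Dnajb1 and Cacybp 1 each close to the start. The motif was chosen after the ratios were seen, and a match is a description of letters, not of binding.

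**Figure D5:**
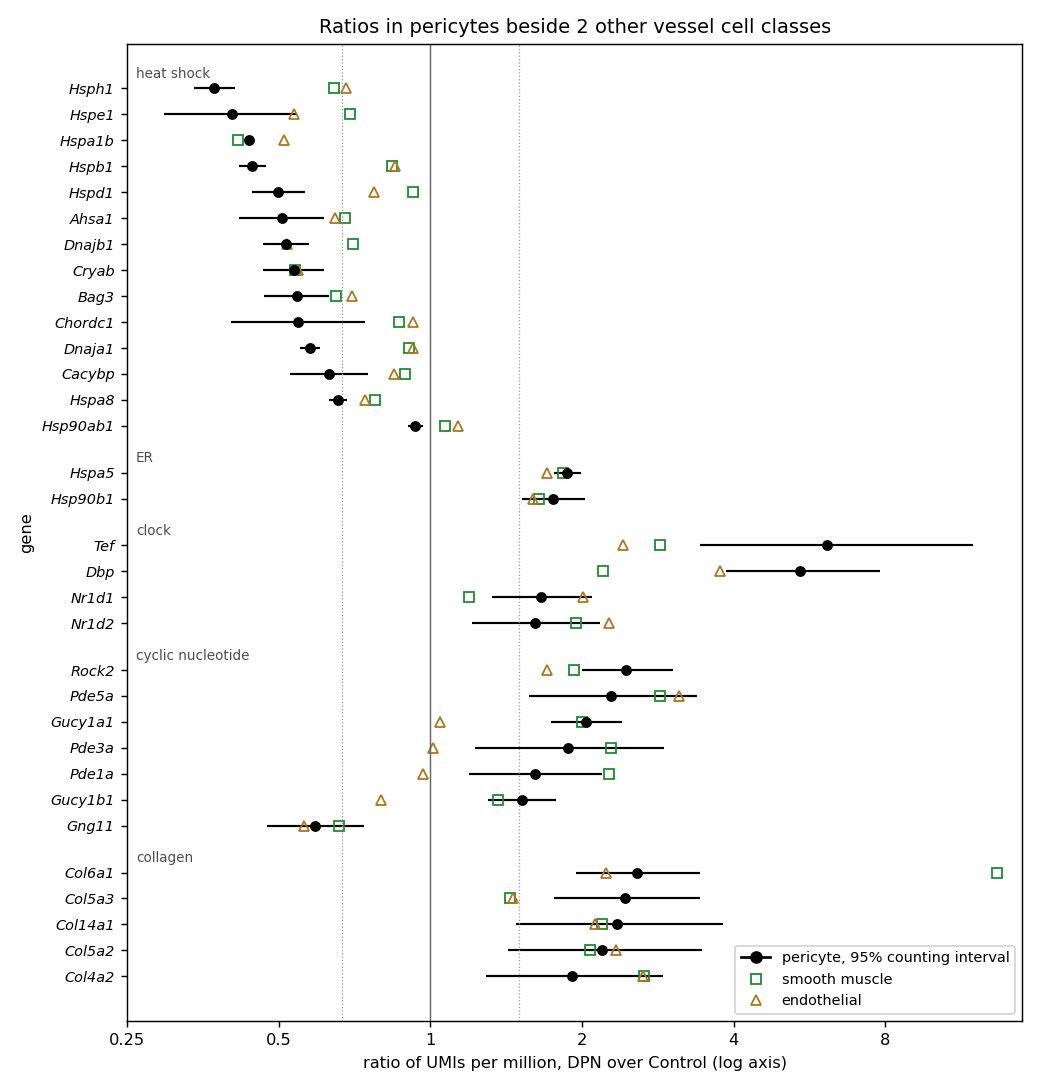
Ratios of DPN over Control levels on a log axis for heat shock, endoplasmic reticulum (ER) chaperone, clock, cyclic nucleotide and collagen genes in pericytes (black circles, 95% counting intervals), smooth muscle cells (green squares) and endothelial cells (brown triangles), with dotted lines at 1.5 and 1/1.5. All heat shock genes shown except Hsp90ab1 lie left of 1/1.5 in pericytes. The intervals of Gucy1a1 and Gucy1b1 in pericytes lie right of 1, while their endothelial ratios are 1.04 and 0.798.

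Among ER genes Hspa5 and Hsp90b1 were higher. Hspa5, the chaperone BiP, rose from 1260.5 to 2357 CPM (ratio 1.87, 1.76 to 1.99), and Hsp90b1, its partner GRP94, rose from 246 to 432 (1.75, 1.52 to 2.03). In all 2 of 18 tested ER genes were higher, against 15.5% of all tested genes, and 1 was lower, against 6.07%, the stress-induced transcription factor Ddit3 (0.565). Pdia3, Pdia6 and Canx stood at 1.46, 1.47 and 1.43. Hspa5 also stood at 1.83 in smooth muscle cells and 1.71 in endothelial cells.

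Immediate early genes gave as many calls in each direction. Of 28 tested members 3 were higher (Fosb, Nr4a2 and Socs3) and 3 lower (Btg1, Gadd45g and Maff), against 15.5% and 6.07% of all tested genes. Gadd45g lost its call under 6 of 14 alternatives. Fosb, an AP-1 subunit, stood at 2552 in Control and 3925 in DPN (1.54, 1.47 to 1.61), while Fos and Jun reached ratios of 1.32 and 1.27 and did not pass. Btg1, an antiproliferative factor, fell from 1425 to 737 (0.517, 0.478 to 0.559), and Maff, a small MAF factor, from 384 to 184 (0.480, 0.410 to 0.561).

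Leaving out clone names, the highest ratios belonged to clock output genes. Tef and Dbp are related transcription factors of the PAR bZIP family whose transcripts cycle through the day in many tissues. Tef stood at 11.2 in Control and 68.8 in DPN (6.15, 3.43 to 12), on 13 and 97 UMIs, and Dbp at 33.6 in Control and 182 in DPN (5.43, 3.86 to 7.81). Nr1d1 and Nr1d2, the REV-ERB repressors, rose as well, with ratios of 1.66 and 1.61. Overall 4 of 10 tested clock genes were higher, against 15.5% of all tested genes, and 0 were lower. Per3 and Cry2 stood at 1.48 and 1.37, and Nfil3, which opposes Dbp at its sites, at 0.945. The ratio of Dbp was 2.20 in smooth muscle cells and 3.76 in endothelial cells, and that of Tef 2.86 in smooth muscle cells and 2.41 in endothelial cells. No hour of collection was known for either pool, and with 1 pool each, time of day and condition cannot be told apart.

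The E-box CACGTG, at which CLOCK and BMAL1 drive output genes, lay in the 250 bases before the start of Tef and Nr1d1 and of 5.59% of all rat promoters, and no match was found in that window for Dbp and Nr1d2. It also lay there for Bhlhe40, 1 of the 5 uncalled clock genes with a promoter entry. The stretch upstream of Tef, which had the highest ratio, is shown with the E-box in capitals.
Tef (chr7:115206607-115206706, plus strand, GRCr8): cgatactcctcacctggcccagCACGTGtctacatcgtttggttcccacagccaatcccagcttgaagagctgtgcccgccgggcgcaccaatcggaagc

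Signalling through cyclic nucleotides relaxes mural cells, and its genes were compared between libraries. Of 27 tested genes for cyclic nucleotide and G protein signalling 8 were higher (Gnas, Gucy1a1, Gucy1b1, Pde1a, Pde3a, Pde5a, Plcb4 and Rock2) and 1 lower (Gng11), against 15.5% and 6.07% of all tested genes, with a median log2 ratio of 0.19. Gucy1a1 and Gucy1b1 encode the subunits of the nitric oxide receptor, soluble guanylate cyclase. Gucy1a1 rose from 179.9 to 367 CPM (2.04, 1.73 to 2.40) and Gucy1b1 from 214 to 326 (1.52, 1.30 to 1.78). Pde5a, which breaks down the cGMP they make, rose from 33.6 to 76.6 (2.28, 1.57 to 3.38), so the cyclase and its counteracting enzyme were higher together. The call for Gucy1b1 was lost under 5 of 14 alternatives. Smooth muscle cells gave ratios of 2.0, 1.36 and 2.86 for the 3 genes. Rock2, a kinase that sustains contraction, rose from 108 to 264 (2.45, 2.0 to 3.03). The higher members do not act in 1 direction on tone.

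Receptors for vasoactive signals gave few calls, in both directions. Of 12 tested receptors 1 was higher and 2 were lower, against 15.5% and 6.07% of all tested genes. Avpr1a, the vasopressin receptor of vessels, fell from 167 to 69.5 CPM (0.416, 0.323 to 0.533) and stood at 0.545 in smooth muscle cells and 0.144 in endothelial cells. Adora2a fell from 202 to 134 (0.662, 0.544 to 0.806), close enough to the limit that 6 of 14 alternatives lost the call. Ednra rose from 73.2 to 113 (1.54, 1.18 to 2.03), a call lost under 5 of them. Ednrb (1.06), Npy1r (1.01) and Ptgir (1.09) did not pass, and Agtr1a stood at 1.39 (1.14 to 1.69).

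Genes of ion transport and contraction gave few calls. Stim1, the ER calcium sensor, rose at a ratio of 1.78 (1.42 to 2.23), Atp2b4, a plasma membrane calcium pump, at 2.22 (1.64 to 3.05) and Atp2a2, the ER calcium pump SERCA2, at 1.67 (1.41 to 1.98). Pln, phospholamban, the inhibitor of SERCA2, fell from 518 to 345 CPM (0.665, 0.589 to 0.751), a call lost under 6 of 14 alternatives. Gja4, the gap junction protein connexin 37, fell from 429.6 to 250.3 (0.583, 0.507 to 0.669), while Gjc1, connexin 45, stood at 1.38. Of 19 tested contractile genes, Myh11 and Mylk, myosin light chain kinase, were higher (1.63 and 1.52) and Pln was lower, against 15.5% and 6.07% of all tested genes. Acta2 stood at 0.743 and Tagln at 0.935. For Myh11 the rule capped the level in single cells.

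Of 15 tested genes for PDGF, TGF beta and BMP signalling 6 were higher (Bmp5, Bmpr1a, Ccn1, Id1, Id4 and Tgfbr3) and 0 lower, against 15.5% and 6.07% of all tested genes, with a median log2 ratio of 0.34. Bmp5 lost its call under 7 of 14 alternatives and Id1 and Id4 under 4. Tgfbr3, the co-receptor betaglycan, rose from 79.2 to 187 CPM (2.36, 1.86 to 3.03). Id1, a BMP target, stood at 67.2 in Control and 104 in DPN (1.54, 1.16 to 2.06), but 1 Control cell held 39.7% of its Control UMIs and the ratio was below 1 in thinned cells. Pdgfrb itself did not pass, at a ratio of 1.02 (0.903 to 1.15). Among angiogenic genes 2 of 8 were higher, Vegfa and Nrp1, against 15.5% of all tested genes. Vegfa, the endothelial growth factor induced by hypoxia, rose from 25.8 to 78.7 (3.05, 2.02 to 4.73). Of 24 tested glycolysis and hypoxia genes 3 were higher, Vegfa, Ndrg1 (1.59) and Aldoc (1.75), and 1 was lower (Tpi1). Over all tested genes the shares were 15.5% and 6.07%. Ndufa4l2 and Ldha of the same list stood at 0.722 and 0.855 and were not called. Nrp1, a co-receptor for VEGF and semaphorins, rose from 166 to 315 (1.89, 1.60 to 2.26). Of 7 Notch genes 1 was higher, against the same 15.5%, the nuclear mediator Rbpj (2.21).

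Collagen calls were all higher. Of 9 tested collagens 5 were higher, against 15.5% of all tested genes, 0 were lower, and the median log2 ratio was 0.94. Col6a1, a chain of the beaded collagen VI around vessels, rose from 57.7 to 148 CPM (2.57, 1.94 to 3.44), while its partner chain Col6a2 stood at 232 in Control and 250.3 in DPN (1.08, 0.920 to 1.27). The basement membrane chain Col4a2 rose from 31.9 to 61.0 (1.91, 1.29 to 2.90) while Col4a1 stood at 298 in Control and 382 in DPN (1.28, 1.12 to 1.47). Col5a3, Col14a1 and Col5a2 stood at 2.44, 2.34 and 2.20, and Col3a1 at 0.906. Col6a1 stood at 13.4 in smooth muscle cells and 2.23 in endothelial cells, the former on a Control level of only 1.08.

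Other matrix genes were mixed. Of 16 tested laminin and basement membrane genes 2 were higher (Lama2 and Sparcl1) and 1 lower (Aspn), near or under the shares over all tested genes, and Vtn, Sparc and Bgn stood at 0.771, 0.781 and 0.773. Adamts1, a secreted metalloprotease that cleaves versican, rose from 399 to 813 CPM (2.03, 1.82 to 2.27). Timp3, an inhibitor bound to matrix, rose from 232 to 405 (1.74, 1.5 to 2.02), while Timp1, the soluble inhibitor, fell from 694 to 369 (0.532, 0.476 to 0.595). Tfpi2, a serine protease inhibitor among the 58 genes above each of the 5 classes, fell from 2682 to 1568 (0.585, 0.553 to 0.618) and stood at 0.959 in smooth muscle cells and 0.650 in endothelial cells. It was named after its values were seen. Itga8, an integrin chain of mural cells, was the 1 higher of 13 integrin and adhesion genes (1.77, 1.16 to 2.77), against 15.5% of all tested genes.

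Of 19 tested chemokine and inflammation genes 3 were higher (Il6st, Nfkbiz and Socs3) and 4 lower (Ccl7, Csf1, Il6 and Ptgds), against 15.5% and 6.07% of all tested genes. Nfkbiz lost its call under 6 of 14 alternatives. The monocyte chemokine Ccl7 fell from 492 to 170.2 CPM (0.346, 0.297 to 0.403), whereas its neighbour Ccl2 stood at 4202 in Control and 3222 in DPN (0.767, 0.736 to 0.798). Il6, the cytokine interleukin-6, fell from 192 to 77.3 (0.403, 0.317 to 0.508), with 12.1% of its Control UMIs in 1 cell, while its signalling receptor Il6st rose from 33.6 to 77.3 (2.30, 1.58 to 3.41). Cxcl10 and Cxcl1 stood at 1.09 and 1.15. Ptgds was lower (0.407), but 1 Control cell gave 50.6% of its Control UMIs and the ratio was above 1 when cells with 10% or more mitochondrial UMIs were left out.

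Of 18 tested interferon and antigen presentation genes 15 stood below 1, 2 were lower and 0 higher, against 6.07% and 15.5% of all tested genes, with a median log2 ratio of −0.31. The 2 were the interferon-induced antiviral genes Ifit3 and Oasl. Ifit3 fell from 139 to 57.4 CPM (0.412, 0.311 to 0.541), and stood at 1.07 in smooth muscle cells and 0.877 in endothelial cells. Ifitm1 stood at 0.669 and B2m, the light chain of class I MHC, at 0.744, short of the limit. Among the 12 lowest ratios were also Apol9a, of the apolipoprotein L family, which fell from 201 to 65.2 (0.325, 0.253 to 0.416), and Irgm, an immunity-related GTPase (0.356, 0.232 to 0.535).

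Metabolic genes were called in both directions. Txnip, the glucose-induced inhibitor of thioredoxin and glucose uptake, rose from 468 to 821 CPM (1.76, 1.58 to 1.95) and stood at 1.63 in smooth muscle cells, 1.23 in endothelial cells and 4.71 in satellite glia. Igf1, a growth factor that depends on insulin, fell from 92.1 to 30.5 (0.331, 0.227 to 0.476), and stood at 0.382 in smooth muscle cells and 0.265 in endothelial cells. Fibroblasts held far more of it, at 855 in Control. Ager (1.08) and Slc2a4, the insulin-regulated glucose transporter GLUT4 (1.08), did not pass, nor did Akr1b1, the aldose reductase of the polyol pathway, at 0.834 (0.601 to 1.16). Of 16 tested genes for glucose, insulin and fasting 1 was higher and 3 were lower (Igf1, Igfbp6 and the nuclear receptor Ppard). Of 24 tested glycolysis and hypoxia genes 3 were higher (Aldoc, Ndrg1 and Vegfa) and 1 lower (Tpi1). Over all tested genes 15.5% were higher and 6.07% lower. Igfbp6 and Aldoc changed direction in thinned cells.

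Of 17 tested cholesterol and lipid genes 7 were higher (Apod, Cyp51, Hmgcs1, Insig1, Msmo1, Plin2 and Sqle) and 0 lower, against 15.5% and 6.07% of all tested genes, with a median log2 ratio of 0.29. Insig1 lost its call under 8 of 14 alternatives. Hmgcs1, which makes the substrate of the rate-limiting step, rose from 131 to 245 CPM (1.88, 1.55 to 2.28) and Sqle, squalene epoxidase, from 40.5 to 80.8 (2.0, 1.41 to 2.87). Hmgcs1 stood at 1.56 in smooth muscle cells and 1.85 in endothelial cells and Sqle at 1.24 in smooth muscle cells and 1.17 in endothelial cells. Hmgcs1 stood higher in the other kept barcodes, at 795 and 1035, and the part of their RNA in the pericyte value was not tested. Idi1 and Fdps of the same pathway stood at 0.887 and 1.22.

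Of 28 tested genes against oxidative and metal stress 4 were lower (Gstm5, Hmox1, Mt1 and Mt2A) and 0 higher, against 6.07% and 15.5% of all tested genes. Hmox1, heme oxygenase 1, fell from 143 to 66.0 CPM (0.461, 0.354 to 0.598), and the metallothioneins Mt1 and Mt2A stood at 0.655 (0.597 to 0.719) and 0.648 (0.559 to 0.751), calls that 5 and 3 of 14 alternatives lost. All 13 transcripts of the mitochondrial genome stood above 1, as did 53.0% of all tested genes. Of the 13, 1 was called higher, against 15.5% of all tested genes, and their median log2 ratio was 0.28. The median mitochondrial share of UMIs was 8.19% in Control and 9.36% in DPN pericytes. Of 38 tested ribosomal protein genes 36 stood below 1, with a median log2 ratio of −0.21. Of these, 2 were called lower (Rpl14 and Rps19), against 6.07% of all tested genes. Of 11 tested solute transporters 1 was higher, against 15.5% of all tested genes, the sodium pump subunit Atp1b3 (1.68).

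The remaining named genes with high ratios were Tns1, Arhgef12, Nefl, Nufip2, Acap2, C7, Kmt2a, Uchl1 and Zranb1. Tns1, the focal adhesion protein tensin 1, rose from 17.2 to 67.4 CPM (3.91, 2.40 to 6.69), and Arhgef12, a guanine nucleotide exchange factor downstream of G protein receptors, from 21.5 to 82.3 (3.82, 2.46 to 6.15). The ratio of Tns1 was 3.47 in smooth muscle cells and 2.38 in endothelial cells and that of Arhgef12 4.19 in smooth muscle cells and 2.88 in endothelial cells. C7, complement component 7, rose from 26.7 to 90.1 (3.37, 2.26 to 5.17), against 134 and 230.4 in fibroblasts. Nefl, a neurofilament, and Uchl1, a neuronal deubiquitinase, reached ratios of 3.68 and 3.29. All 4 tested neuron markers (Calca, Nefl, Nefm and Tac1) were higher, against 15.5% of all tested genes. The summed neuron markers given above differ between libraries in the same direction. Nefl is itself 1 of the 6 markers in that sum, so its agreement with the sum is partly fixed in advance. The part of neuron RNA in Nefl and Uchl1 was not tested. Nufip2, Acap2, the histone methyltransferase Kmt2a and Zranb1 reached ratios between 3.24 and 3.42. Of 7 tested cell cycle genes 2 were higher (Cdkn1b and Stmn1), against 15.5% of all tested genes. Of 22 tested pericyte markers outside the rule 3 were higher (Cspg4, Gucy1a1 and Gucy1b1), against the same 15.5%.

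Of the lowest, Clec2l, a C-type lectin-like gene, fell from 77.5 to 25.5 CPM (0.329, 0.217 to 0.490), and Litaf, a lysosomal membrane protein, from 94.7 to 40.4 (0.427, 0.304 to 0.593). Clec2l stood at 1.63 and 1.04 in smooth muscle cells. Of the 58 genes above each of the 5 classes 10 were higher and 7 lower in DPN, and of the 222 tested genes at least 2 times above smooth muscle 37 (16.7%) were higher and 28 (12.6%) lower, against 15.5% and 6.07% of all tested genes. The lower genes among the 58 were Avpr1a, Adora2a, Clec2l, Gng11, Il6, Pltp and Tfpi2. The higher ones included Pde5a, Bmp5, Plcl1, Prph and Scn3a. Neurons were not among the 5 classes, and neuron markers summed to 226 CPM in Control and 565 in DPN pericytes. The part of neuron RNA in Prph and Scn3a was not tested.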

How the data were processed

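Single cells of L3 to L6 ganglia from 1 Control and 1 DPN pool were captured in 10x droplets. The authors ran Cell Ranger 3.1.0 with the STAR aligner and deposited raw UMI counts for each gene and barcode. Neither the labels nor the methods name a genome build. The barcode limits that the study states were not yet applied in the matrices, and no cell annotation was used, so cell classes were rebuilt by gates on marker genes. Shallow DPN cells make low genes harder to detect.

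The 235 Control and 408 DPN pericytes were summed per library, over 1161488 and 1410082 UMIs, and scaled per 1000000. Levels have exact Poisson, shares exact Clopper-Pearson and ratios exact conditional binomial 95% intervals, for counting error only. A doublet score used 2000 genes, 30 components and 50 neighbours, and called cells stayed in. The interval script was tested on simulated data. The members and gene lists were chosen with earlier results of these data known. Named genes are the 12 highest and 12 lowest ratios without clone names, the 15 genes furthest above the highest of 5 other classes, list members past a limit with up to 4 more per list, and the markers. Some genes that this rule names are not reported here. Alternatives numbered 15 for gene counts and 9 for the gate. Promoters came from RefSeq tables of build GRCr8. Python 3.11.15, numpy 2.4.6, scipy 1.17.1, pandas 2.3.3, sklearn 1.9.0 and matplotlib 3.10.9 were used.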

Additional observations from a re-analysis of the deposited data

How the results depend on the processing

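No paired analysis was possible because both conditions hold a single pool. Leaving out a replicate was likewise not possible. The pericyte share moved to 1.91% in Control and 2.92% in DPN with a marker sum of at least 20, to 1.99% and 3.17% with no Myh11 UMI, and to 7.42% and 6.93% with under 10% mitochondrial UMIs. Higher genes numbered 315 with under 10% mitochondrial UMIs, 83 in cells thinned to 1000 UMIs, 278 among genes at or above the level of the other kept barcodes and 1210 with at least 20 UMIs and no share of cells, against 477. Lower genes numbered 81, 104 and 305 under the last 3, against 187. Genes at least 2 times above smooth muscle numbered 103 when thinned and 413 at 20 UMIs, against 267. Fewer UMIs or genes entered in the first 3 of these settings and more in the last.

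In thinned cells the ratio turned to 0.813 for Aldoc, 0.854 for Id1, 1.08 for Igfbp6 and 2.07 for Tyrp1. With under 10% mitochondrial UMIs it turned to 1.26 for Ptgds and 1.09 for Tyrp1, and without likely doublets to 1.001 for Tyrp1. The cause was not tested. Of the other values of named genes 2961 lay within the counting interval of the reported value and 242 outside it, and 12 of the list medians moved. These counts include agreement fixed in advance. Of the 14 alternatives, the one with at least 20 UMIs and no share of cells only changes which genes enter, so its ratios equal the reported ones. Scaling without mitochondrial genes and median-ratio scaling each shift all ratios by the same factor. Among calls near a limit Cspg4 passed under 5, Insig1 under 6 and Bmp5 under 7 of 14 alternatives. Leaving out hemoglobin-rich barcodes and restricting genes to those at or above the other kept barcodes were chosen after seeing the data. Depth limits the genes that can be read: only 853 passed when thinned.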

Other observations

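Variation among single pericytes was described over 1032 genes in cells thinned to 1000 UMIs, by the variance of the UMIs over their mean, which is 1 for pure counting. The median was 1.07 in both libraries. Ccl2, a monocyte chemokine, reached 10.1 in Control and 9.40 in DPN, and the interferon-induced chemokine Cxcl10 reached 5.89 and 7.71. The stress genes Hspa1b, at 10.3 and 7.63, and Hspb1, at 8.16 and 8.26, and the immediate early gene Fos, at 6.48 and 6.01, varied in both libraries too. Above all of these stood hemoglobin transcripts, which few cells held. These genes were chosen after their values were seen, and the values rest on 1 library per condition.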
